A study of Mus musculus with 2 samples.

Results

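The GIMAP genes (GTPases of immunity-associated proteins) were compared between Tc9 and Tc1 cells, which are mouse CD8 T cells polarized in culture toward interleukin 9 and toward interferon gamma. Members were chosen by name, as the probe sets whose annotated symbol is Gimap1, Gimap3, Gimap4, Gimap5, Gimap6, Gimap7, Gimap8 or Gimap9. The choice was made with earlier results of these data known. All 8 had a probe set, 1 each, among 19505 measured genes. CD8 T cells came from spleen and lymph node and were activated with antibodies to CD3 and CD28. During 3 days of polarization the Tc9 culture received IL-4 at 10 ng/mL and TGF-beta at 1 ng/mL, together with a monoclonal antibody to interferon gamma at 20 µg/mL. The Tc1 culture received recombinant human IL-2 at 10 ng/mL. Both were then kept for 2 days with 10 ng/mL IL-2, and RNA was taken on day 5. Whether the Tc9 polarizing medium also held IL-2, and the strain, genotype, sex and age of the mice, were not stated in the labels.

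GIMAP proteins share a guanine nucleotide-binding domain of the AIG1 type, sit mostly on intracellular membranes, and are made mainly by lymphocytes and endothelial cells. Their genes lie side by side in 1 cluster, on chromosome 6 in the mouse. The family is known for its part in the survival of peripheral T cells, since rats and mice that lack a working Gimap5 lose T cells. In human CD4 T cells differentiating in culture, GIMAP1 and GIMAP4 have been described as lower in the presence of IL-4.

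There was 1 array per group, so no difference below has a replicate check, and none carries an error or a p-value. Each describes this pair of arrays, as log2 Tc9 minus log2 Tc1 of the deposited intensities. The title of the Tc9 sample names it Tc9 while its source name says Tc1, and it was taken as Tc9. On that array Il9 was at least 4.07-fold higher, and Tbx21, the T-bet transcription factor, was 8.30-fold lower, than on the Tc1 array. Detectable genes, 10147 in all, are those with a log2 signal of 6.43 or more on at least 1 array, which is the median of all gene values. Of these, 2.62% were higher by 2-fold or more on the Tc9 array, and 2.79% were lower by as much. All 8 Gimap genes were above this level on both arrays, with log2 signals between 7.81 and 11.90, and also above the 95th percentile of the negative control probe sets (7.02 on the Tc9 array and 7.30 on the Tc1 array). Signals of different probe sets are not comparable, so no order of abundance among the genes is given.

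The Gimap genes did not all differ in 1 direction. Gimap7 was 2.58-fold lower in Tc9 cells and was the only one of the 8 past 2-fold, while none was 2-fold higher. Gimap6 and Gimap3 were lower by 1.70-fold and 1.53-fold, Gimap8 and Gimap5 by 1.18-fold and 1.03-fold, and Gimap9, Gimap1 and Gimap4 were higher by 1.37-fold, 1.16-fold and 1.08-fold. The median difference of the 8 genes was -0.14 and their mean -0.28, against a median of 0.05 over all detectable genes. With 1 gene of 8 past 2-fold, the count is too small to set the family apart from the background of 2.79%.

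**Figure D1:**
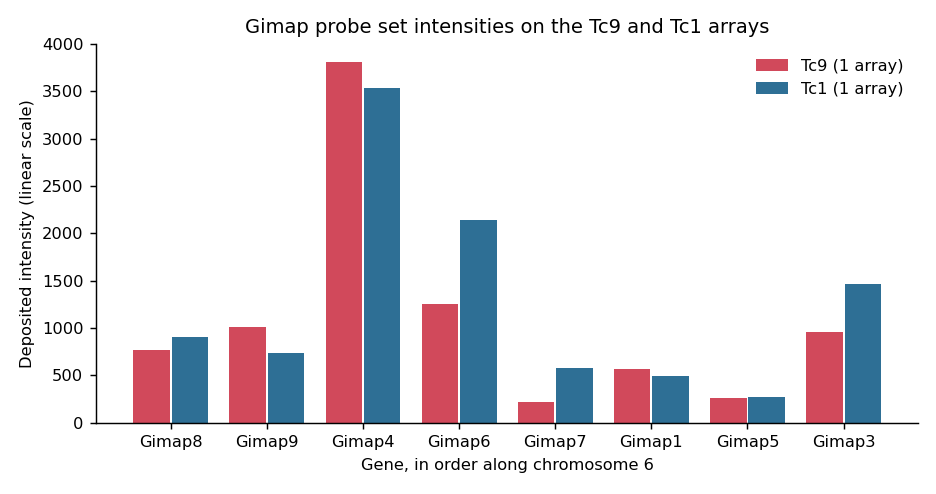
Deposited intensity (linear scale) of each Gimap probe set on the Tc9 array (red) and the Tc1 array (blue), 1 array per group, with genes in chromosomal order. Gimap7, Gimap6 and Gimap3 are shorter in the Tc9 bars, and bar heights are not comparable between genes.

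Gimap7 had an intensity of 224.7 on the Tc9 array, against 580.4 on the Tc1 array. The human form of its protein is known to speed GTP hydrolysis by GIMAP2. Its log2 signals of 7.81 on the Tc9 array and 9.18 on the Tc1 array gave a difference of -1.37, and 162 of the 10147 detectable genes had a difference this low or lower. Gimap6, whose protein binds the autophagy protein GABARAPL2, had an intensity of 1259 on the Tc9 array, against 2141 on the Tc1 array. Its difference was -0.77, at rank 451 from the lowest. Gimap6 thus stayed within 2-fold while lying in the lowest 4.44% of detectable genes.

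Among the members tied to lymphocyte survival, Gimap5 hardly differed. Gimap5 had 261.5 on the Tc9 array, against 269.7 on the Tc1 array, a log2 difference of -0.04 that turned to 0.023 after median centring. Gimap3, its close copy in the mouse and also known to support T cell survival, had 958.6 on the Tc9 array, against 1465 on the Tc1 array, a difference of -0.61. The sequences of the array probes were not used here, so how well these paralogs are separated was not checked. Gimap1, which mature T and B cells of mice need, had 569.1 on the Tc9 array, against 491.1 on the Tc1 array, a difference of 0.21.

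Gimap4, known to act on the course of T cell death, had 3810 on the Tc9 array, against 3539 on the Tc1 array, a difference of 0.11. Gimap9 had 1012 on the Tc9 array, against 739.9 on the Tc1 array. It was the member with the highest difference, 0.45, and 87.8% of detectable genes had a difference at or below it. Gimap8, which encodes the longest protein of the family with several GTPase-type domains, had 767.5 on the Tc9 array, against 904.1 on the Tc1 array, a difference of -0.24. From Gimap7 to Gimap9 the differences spanned 1.82 on the log2 scale.

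Control probe sets and genes of like brightness give a scale for these differences. Among 6156 detectable genes whose mean log2 signal lay in the members' range, from 8.05 to 11.84, the central 90% of differences ran from -0.58 to 0.63, and 1.62% were at least 2-fold higher and 2.16% lower by as much. Gimap7, Gimap6 and Gimap3 lay below that range, and the other 5 members lay inside it. Of 866 control probe sets with pos in their ID in this range of signal, none had a difference as low as that of Gimap7 and 9 had one as low as that of Gimap6. Of 117 such controls with neg in their ID, 6 were as low as Gimap7 and 25 as low as Gimap6. These 117 were lower on the Tc9 array as a class, with a median of -0.39. The median was 0.11 for the 866 controls and 0.06 for the 6156 genes. Of those genes, 74 were as low as Gimap7 and 212 as low as Gimap6. By Euclidean distance over the 2 log2 signals, the genes nearest to Gimap7 were Zbp1, Gfra1 and Kcna3, with differences of -1.36, -1.27 and -1.25. Since signals of different probe sets are not comparable, only their like differences can be read from this.

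**Figure D2:**
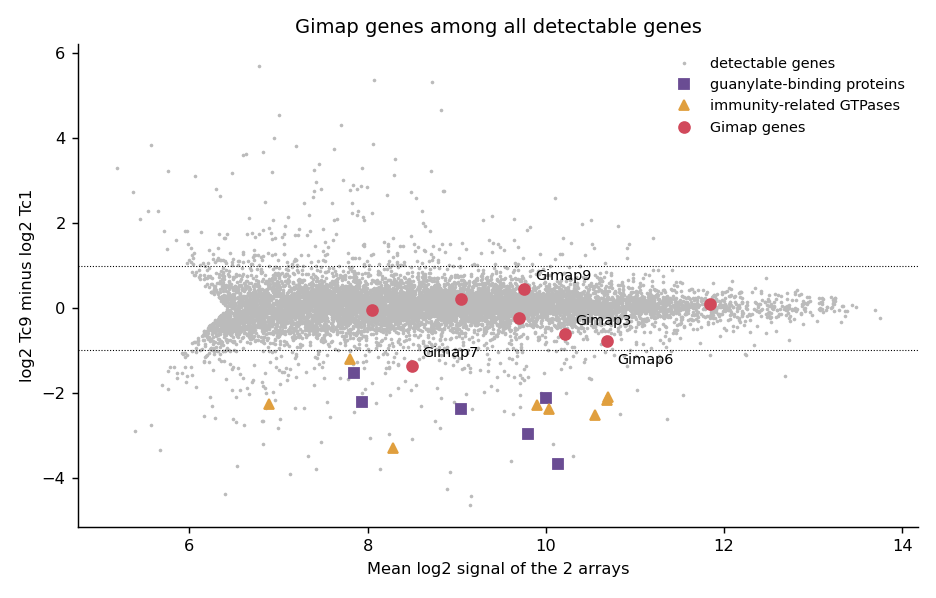
Difference between arrays (log2 Tc9 minus log2 Tc1) against the mean log2 signal of the 2 arrays for the 10147 detectable genes (grey), with the Gimap genes (red circles), guanylate-binding proteins (purple squares) and immunity-related GTPases (orange triangles). Dotted lines mark 2-fold; of the red circles, Gimap7 alone lies beyond them, at -1.37.

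By chromosomal order in the GRCm38.p6 RefSeq gene table, the cluster runs Gimap8, Gimap9, Gimap4, Gimap6, Gimap7, Gimap1, Gimap5 and Gimap3, with no other protein-coding gene with a probe set between them. Gimap6 and Gimap3 are on the minus strand and the other 6 on the plus strand. The members with the lowest differences, Gimap7 and Gimap6, are neighbours, and Gimap4 and Gimap1 on either side of this pair differed by 0.11 and 0.21. The first genes past Gimap3 are Tmem176b and Tmem176a, which encode a pair of ion channels of intracellular membranes. Tmem176b had log2 signals of 10.33 on the Tc9 array and 7.09 on the Tc1 array, 9.40-fold higher, and Tmem176a was 4.84-fold higher. Gimap3, their nearest neighbour in the cluster, went the other way at -0.61. On the far side of Gimap8, Repin1 and Lrrc61 differed by 0.01 and 0.16, and Zfp775 was lower by at least 1.22-fold. Repin1 was at -0.05 after quantile normalization. The other 5 of the 10 flanking genes were below the detection threshold on both arrays.

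**Figure D3:**
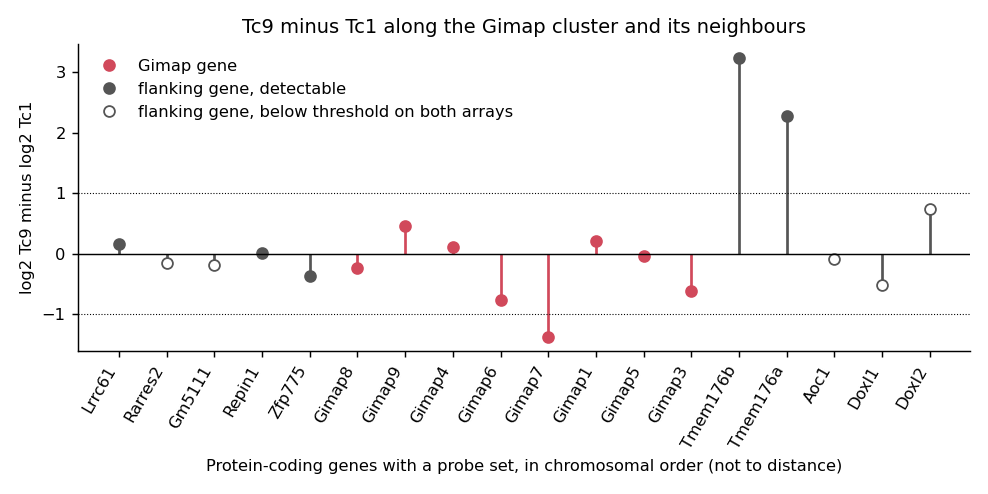
Difference between arrays (log2 Tc9 minus log2 Tc1) of the 8 Gimap genes (red) and of 5 protein-coding genes with a probe set on each side (grey; open where below the detection threshold on both arrays), in chromosomal order and not to distance. Dotted lines mark 2-fold; Tmem176b and Tmem176a stand at 3.23 and 2.28, next to Gimap3 at -0.61.

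The regions around the start sites were read next, because members of 1 cluster differed in direction. RefSeq windows of 300 bases, from 250 before to 50 after the start site, were found for 8 of 8 members, with 2 overlapping windows for Gimap8. Matches on both strands are given for 6 motifs, picked with the differences already known. Windows are shown for the neighbours Gimap7 and Gimap6, the members with the lowest differences, and for Gimap9, the member with the highest, 5′ to 3′ on the strand of the gene in GRCm38.p6, with capitals for every match to 1 of the 6 motifs.
Gimap7 (chr6:48718371-48718670, plus strand): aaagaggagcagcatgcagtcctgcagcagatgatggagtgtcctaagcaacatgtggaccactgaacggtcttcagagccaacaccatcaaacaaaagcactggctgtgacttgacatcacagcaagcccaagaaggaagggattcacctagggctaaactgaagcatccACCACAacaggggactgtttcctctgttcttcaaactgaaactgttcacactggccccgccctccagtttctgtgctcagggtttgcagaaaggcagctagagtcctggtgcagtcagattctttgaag
Gimap6 (chr6:48708195-48708494, minus strand): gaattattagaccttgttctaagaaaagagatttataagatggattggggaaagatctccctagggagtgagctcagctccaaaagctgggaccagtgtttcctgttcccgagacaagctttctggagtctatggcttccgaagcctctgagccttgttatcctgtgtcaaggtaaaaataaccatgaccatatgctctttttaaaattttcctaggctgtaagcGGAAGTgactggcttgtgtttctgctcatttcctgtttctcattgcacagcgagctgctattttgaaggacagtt
Gimap9 (chr6:48675885-48676184, plus strand): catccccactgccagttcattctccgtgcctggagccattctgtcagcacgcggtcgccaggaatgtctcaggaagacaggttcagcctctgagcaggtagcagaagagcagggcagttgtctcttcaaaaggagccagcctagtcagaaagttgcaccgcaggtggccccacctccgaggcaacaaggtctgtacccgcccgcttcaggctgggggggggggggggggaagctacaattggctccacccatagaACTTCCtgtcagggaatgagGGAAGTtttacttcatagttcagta

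The ETS letters GGAAGT stood in the windows of Gimap6, Gimap9, Gimap1 and Gimap5, 4 of 8 members, against 23.8% of all 32851 windows. Gimap6 and Gimap9, which differed in opposite directions, both held them, starting 25 bases before the start site in Gimap6 and 5 and 25 bases after it in Gimap9. The RUNX letters TGTGGT stood in the windows of Gimap7, Gimap4 and Gimap1, against 16.8% of all windows, and the FOXO letters TGTTTAC in that of Gimap3, against 3.65%. No window of a member held TTCNNNNGAA, the spacing that STAT6 prefers (6.95% of all windows), the interferon-stimulated element core GAAANNGAAA (3.44%) or the SMAD box GTCTAGAC (0.213%). No matches overlapped each other. This is a description of 8 neighbouring genes, with no test, and a match is not a bound site.

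The Gimap genes differed far less between the arrays than the interferon-inducible GTPases. All 6 measured guanylate-binding protein genes, which encode large GTPases of defence against intracellular pathogens, were at least 2-fold lower on the Tc9 array, with differences between -3.67 and -1.52 and a median of -2.29. Gbp3 was 5.17-fold lower and Gbp9 4.64-fold lower. Of 9 measured immunity-related GTPase genes, 8 were detectable, and all 8 were at least 2-fold lower, between -3.30 and -1.21, with a median of -2.28. Irgm1 was 5.21-fold lower and Irgm2 4.87-fold lower. Gimap7, at -1.37, was lower than 1 gene of the immunity-related list, Gm5431, at -1.21. The next lowest Gimap gene, Gimap6, was at -0.77, above all of them. The septins, GTPases that form filaments, had 7 detectable genes of 12 measured, none past 2-fold, and a median of 0.02. The families were read side by side, and the difference between them was not tested.

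**Figure D4:**
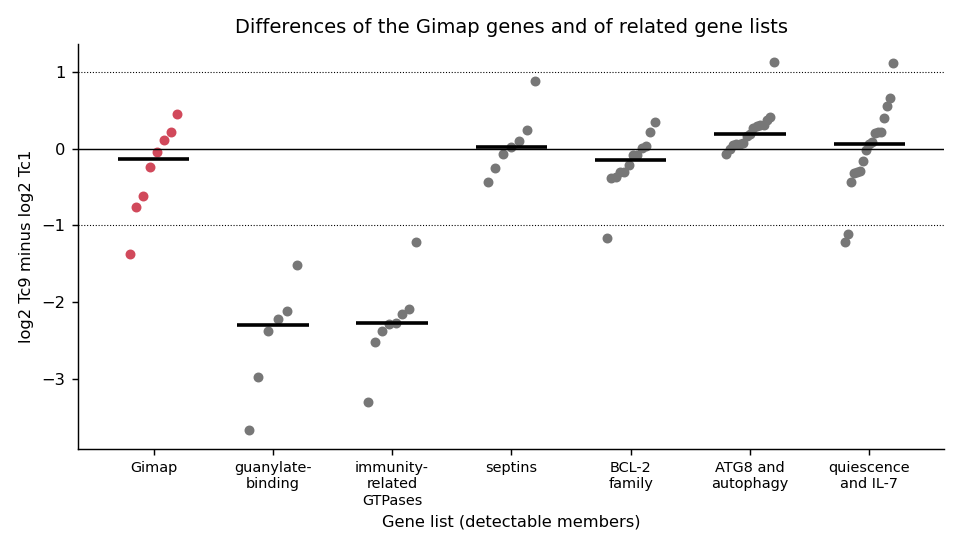
Difference between arrays (log2 Tc9 minus log2 Tc1) of the detectable genes of each list, 1 point per gene, with the list's median as a bar and 2-fold as dotted lines. The Gimap median lies at -0.14, and those of the guanylate-binding proteins and immunity-related GTPases at -2.29 and -2.28.

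Genes of 3 processes in which GIMAP proteins act were read beside them, against 94.6% of all detectable genes within 2-fold. GIMAP proteins have been reported to bind members of the BCL-2 family, which controls mitochondrial cell death. Of the 12 measured genes of a BCL-2 family list of 13, Bcl2l11, which encodes the death-promoting BIM, was 2.24-fold lower on the Tc9 array, and the other 11 were within 2-fold, with a median of -0.15. Bcl2 itself differed by -0.30 and Bcl2l1 by -0.39. The list does not hold every gene of the family, and outside it Bcl2a1b was at -0.96. Of 15 genes of ATG8 conjugation and autophagy, 13 were higher in Tc9 cells by any amount, against 56.3% of all detectable genes, with a median of 0.19. The number was 15 after median centring, against 64.3% of all detectable genes, and 12 after quantile normalization, against 52.6%. Map1lc3a, an ATG8 protein, was the one past 2-fold as measured, but it was below the threshold on the Tc1 array and its fold is at least 1.40. Gabarapl2, the partner of Gimap6, differed by 0.30. In the list of lymphocyte quiescence and IL-7 survival, 14 of 17 genes (82.4%) were within 2-fold and the median was 0.06. S1pr1, the receptor for exit from lymph nodes, was 2.16-fold higher. Dapl1 was 2.32-fold lower, and Ccr7, which guides cells into lymph nodes, 2.16-fold lower. Il7r, the IL-7 receptor chain, differed by -0.30.

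B cells also express Gimap genes, which did not all differ in 1 direction, and markers of B cells were read beside them. All 9 measured B cell markers were detectable and all 9 had lower signals on the Tc9 array, against 43.7% of all detectable genes, with a median of -0.42. Fcrla was past 2-fold as measured and at least 1.30-fold lower. However, Fcrla and Blk were below the 95th percentile of the negative controls on both arrays. Ebf1 differed by -0.0073 and turned to 0.061 after median centring, which left 8 of 9 lower, against 35.7% of all detectable genes. The log2 signals of the B cell markers ran from 5.52 to 9.68 on the Tc9 array and from 6.80 to 10.65 on the Tc1 array. Their summed intensity was 3448 on the Tc9 array and 4852 on the Tc1 array. All 9 T cell markers were detectable, and most had lower signals on the Tc9 array as well, 7 of 9 (77.8%) as reported and 6 of 9 after median centring. Their summed intensity was 26440 on the Tc9 array and 30274 on the Tc1 array, with a median of -0.20, and Cd5 was 3.15-fold lower. Of 8 endothelial markers Pecam1 alone was detectable, which T cells also express, at 8.18 on the Tc9 array and 8.14 on the Tc1 array. In bulk RNA, fewer cells of a type and less RNA per cell cannot be told apart, and the part of B cells in the Gimap differences was not tested.

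**Figure D5:**
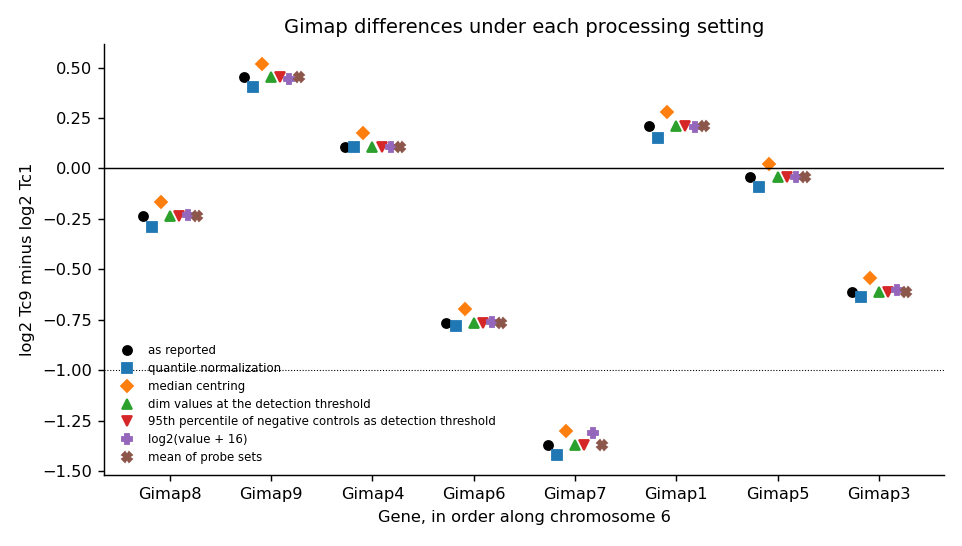
Difference between arrays (log2 Tc9 minus log2 Tc1) of each Gimap gene as reported (black) and under 6 other processing settings, with the dotted line at 2-fold lower. Gimap7 stays between -1.42 and -1.30, and Gimap5 alone crosses 0.

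The processing settings that could change a member moved it by little. Changes to the threshold or to the averaging of probe sets could not, since each member had 1 probe set and was above both thresholds. Over the reported values and 6 alternatives, Gimap7 lay between -1.42 and -1.30, Gimap6 between -0.78 and -0.70, Gimap3 between -0.64 and -0.54 and Gimap8 between -0.29 and -0.17. Gimap9 lay between 0.41 and 0.52, Gimap1 between 0.15 and 0.28 and Gimap4 between 0.11 and 0.17.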

How the data were processed

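Total RNA of 1 Tc9 and 1 Tc1 culture was measured on Affymetrix arrays. Trizol extraction and biotin labelling of sense targets were used, per the labels' protocols. The deposited table holds probe set intensity values on a linear scale; for their summarization, background correction and normalization, no method was found in the labels. The deciles of both arrays differed by at most 0.11 on the log2 scale, so log2 intensities were used without further normalization.

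Of 28846 probe sets, 19572 had 1 gene symbol in the platform annotation, none had several and 9274 had none. They gave 19505 genes, and for the 55 with several probe sets the brighter was used. Differences are log2 Tc9 minus log2 Tc1. No test was possible with 1 array per group, and 2-fold describes size only; the number of arrays limits the precision. Where 1 array was below the detection threshold, the fold is given as "at least" with the threshold in its place, while counts use measured values. The counting was tested on simulated data with shifts larger than any Gimap difference, which does not show how it does at the size of those.

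The members, lists and motifs were chosen with earlier results of these data known. Genes named were all members, 5 flanking genes on each side, and the 3 genes nearest to the member with the largest difference. From each list, up to 4 detectable genes past 2-fold could be named, by size. Of the guanylate-binding proteins and immunity-related GTPases so picked, only Gbp3, Gbp9, Irgm1 and Irgm2 are named, which are not the largest. Bcl2, Bcl2l1, Bcl2a1b, Ebf1, Blk, Gabarapl2, Il7r, Gm5431, Cd4, Zbtb7b, Cd40lg, Pecam1, H2-Aa, Batf3, Chil3 and Arg1 were named outside this rule, with their values known. So were the culture genes Il9 and Tbx21. Sequences are from RefSeq (GRCm38.p6). A further motif was searched and is not reported here, for a reason unrelated to its matches. The build behind the array design is not stated, so gene order but no gene coordinates are taken from that table. Python 3.11.15, numpy 2.4.6, pandas 2.3.3 and matplotlib 3.10.9 were used.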

Additional observations from a re-analysis of the deposited data

How the results depend on the processing

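The 6 alternatives were quantile normalization, median centring, dim values set at the detection threshold, the 95th percentile of the negative controls as threshold, log2(value + 16) and the mean of a gene's probe sets. Under all 6, Gimap7 remained the 1 Gimap gene at least 2-fold lower and none was 2-fold higher, and the median Gimap difference stayed between -0.19 and -0.07. For the Gimap genes, however, only quantile normalization, median centring and log2(value + 16) could change a value. The other settings could not, since each member had 1 probe set and was above both thresholds on both arrays. Gimap5 turned to 0.023 after median centring, which shifted all differences by 0.07, and Repin1 turned to -0.049 after quantile normalization. Genes at least 2-fold higher numbered between 204 and 308, and those at least 2-fold lower between 225 and 283. The 1 autophagy gene past 2-fold, Map1lc3a, dropped out with dim values at the threshold, with the negative control threshold and with log2(value + 16), each leaving 0. No paired analysis was possible because each group has 1 array, and no replicate could be left out.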

Other observations

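Markers of other cell types were mostly below the detection threshold on both arrays. Of 9 monocyte and macrophage markers 4 were detectable, 1 higher and 3 lower on the Tc9 array and none past 2-fold. The summed intensity of the 9 was 1032 on the Tc9 array and 1077 on the Tc1 array. The list does not hold every gene of these cells. Outside it Chil3 and Arg1, genes of IL-4-activated macrophages, differed by 5.70 and 2.63 as measured. Neither gene reached the threshold in Tc1 cells, which leaves the sizes of these differences uncertain. Still, both were higher on the Tc9 array, and the sums do not show a like content of macrophages. This was not tested. Of 8 dendritic cell markers 3 were detectable, and Zbtb46, a transcription factor of these cells, was at least 1.33-fold lower on the Tc9 array. However, Zbtb46 was below the negative control threshold on both arrays. The other detectable markers, H2-Aa and Batf3, were lower on the Tc9 array by 1.34-fold and 1.53-fold. One detectable marker each was left among 6 of NK and innate lymphoid cells and 7 of neutrophils, neither past 2-fold. Of 3 measured CD4 T cell markers 2 were detectable, 1 higher and 1 lower on the Tc9 array. Cd4, the co-receptor of helper T cells, had log2 signals of 8.74 on the Tc9 array and 9.33 on the Tc1 array. Zbtb7b went the other way, at 8.38 on the Tc9 array and 8.03 on the Tc1 array. Cd40lg was below the detection threshold on both arrays.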
